A study of Mus musculus with 6 samples.

Results

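The transcripts of 41 genes of the DNA damage response and of homologous recombination were followed in 6 bulk RNA-seq libraries of mouse hematopoietic stem and progenitor cells. The genes were taken as a written list of repair and checkpoint factors and matched by symbol to the 49315 genes of the count files through the GENCODE annotation of GRCm38. All 41 were found, and all 41 had enough counts to be tested. The libraries came from LT-HSCs, ST-HSCs and MPPs, which are the long-term and short-term repopulating stem cells and the multipotent progenitors that follow them. Marrow was pooled within each genotype, WT or ING4-/-, before the populations were sorted. The WT controls were C57BL/6 mice of 8 to 12 weeks of age that carry CD45.2, as the ING4-/- mice do, and the age of the ING4-/- mice that gave these libraries was not given in the sources used here. The gates kept lineage-negative, Sca1+, cKit+ cells without CD48, and CD34 and CD150 told the 3 populations apart.

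Cells meet a DNA double-strand break with sensors that load the kinase ATM, while stretches of single-stranded DNA at stalled forks load ATR, and both kinases signal to arrest the cell cycle. Repair then runs either by homologous recombination, in which BRCA1, PALB2 and BRCA2 act on resected DNA and an intact copy serves as the template, or by end joining with the Ku proteins and DNA-PKcs. The Fanconi anemia proteins open the recombination route to crosslinks, and in the marrow their loss is known to exhaust the stem cell pool.

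A WT library held 7839326 to 9363442 counts in total and an ING4-/- library 35596876 to 39192588. The libraries stood apart by genotype in a second way. Genes of olfactory and vomeronasal receptors, which belong to sensory neurons and serve here as a measure of background, held between 18.3 and 22.9 counts for each kb of their exons in WT and no more than 0.0800 in ING4-/-. Spread over all genes by exon length, that background came to between 22.8% and 33.7% of the counts of a WT library and never exceeded 0.0263% in ING4-/-. For LT-HSCs, ST-HSCs and MPPs in that order, which is kept for every series of 3 values, Ing4 itself had 247, 162 and 247 counts in WT against 0, 24 and 76 in ING4-/- (log2 fold change -4.49, SE 1.56, adjusted p = 0.0373, edgeR's quasi-likelihood test). Background alone gives 120.3, 122 and 97.2 of its WT counts, and after background subtraction the log2 fold change of Ing4 was -4.23 with the call lost (adjusted p = 0.0870). The call was also lost without any WT library or without ING4-/- ST-HSCs (adjusted p = 0.0660 to 0.0830). Of the sort markers, Kit and Ly6a were counted in every library, Slamf1 (CD150) was lowest in the MPPs of each genotype, and Cd48, a gene that the gate excluded, was at 0 counts only in ING4-/- LT-HSCs, against 4300 counts in ING4-/- MPPs. Markers of other cells were counted in both genotypes. Summed over each list, 8 B cell markers held 116 to 163 CPM in WT and 57.6 to 110 in ING4-/-, with 6 of the 8 at 3 counts or fewer in every ING4-/- library. The 8 T and NK cell markers held 83.6 to 189 CPM in WT and 42.3 to 245 in ING4-/-. Of these, Cd3e, Cd3d, Cd3g, Cd8a and Ncr1 were at 3 counts or fewer in every ING4-/- library. The ING4-/- sums therefore rest on the others, Cd4, Lck and Nkg7. The 8 stromal and endothelial markers held 311 to 457 CPM in WT and 66.5 to 291 in ING4-/-. Sums of 10 erythroid markers were 48.9 to 239 CPM in WT and 95.7 to 242 in ING4-/-, and those of 10 granulocyte markers 124 to 361 and 322 to 580. Within the erythroid list Hba-a1, Hba-a2, Hbb-bs and Hbb-bt were called higher, with log2 fold changes of 3.75 to 5.69. They stayed called after background subtraction, and Alas2 was called lower from the deposited counts (-10.2). The part of other cells in the results on repair genes was not tested. In bulk libraries fewer cells of a type and less RNA per cell cannot be told apart.

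Promoter sequence was found in RefSeq for 34 of the 41 genes, on GRCm38.p6, and its first 250 bases upstream of the start were searched on both strands. A match to an E2F site, spelled TTTCCCGC, TTTCGCGC, TTTGCCGC or TTTGGCGC, lay in 6 of the 34 (Chek2, Mdc1, Bard1, Brca2, Fancg and Xrcc6), against 2.16% of 27025 genes with a promoter. The NRF1 site GCATGCGC lay in 4 (Atm, Fanci, Fancm and Lig4), against 2.56%, and CCAAT in 19, against 37.5%. No overlap between the motifs was sought, and a match describes letters and does not show a bound factor. The windows of 4 genes are shown because 3 of them (Mdc1, Bard1 and Brca2) had no count at all in ING4-/- LT-HSCs while Chek2, which holds the same site, had 378. Sequences run 5′ to 3′ on the strand of the gene, and capitals mark the E2F match, as spelled above in Mdc1 and Bard1 and as its reverse complement in Brca2 and Chek2.
Mdc1, chr17:35841456-35841497, plus strand: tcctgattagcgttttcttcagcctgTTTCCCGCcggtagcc
Bard1, chr1:71103148-71103207, minus strand: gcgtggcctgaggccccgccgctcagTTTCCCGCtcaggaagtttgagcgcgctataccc
Brca2, chr5:150522427-150522486, plus strand: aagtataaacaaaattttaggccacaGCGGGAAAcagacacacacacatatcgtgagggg
Chek2, chr5:110839805-110839864, plus strand: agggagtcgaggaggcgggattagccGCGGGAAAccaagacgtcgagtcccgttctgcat

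Levels are given as CPM, counts scaled to equal library size with TMM normalization, and a gene was called at an adjusted p under 0.05 with an absolute log2 fold change over 1 (edgeR's quasi-likelihood test, Benjamini-Hochberg over all genes tested). The 3 populations of a genotype stood in for replicates, so p-values measure the spread between populations and no population had a repeat library. With the deposited counts 5 of the 41 genes fell in ING4-/- (Atm, Atr, Prkdc, Lig4 and Blm) and 2 rose (Rad51d and Fancl). Over all 31001 genes tested, 56.7% were called lower and 7.98% higher. The median log2 fold change of the 41 was -0.61, with 29 of them negative, beside -6.85 over all genes. DESeq2's size factors moved the all-gene median to -7.17 and upper-quartile scaling to -6.35. They also changed the calls, to 10 lower and 0 higher with DESeq2's factors and to 2 lower (Atm and Lig4) and 6 higher (Bap1, Chek1, Fancl, Rad51d, Xrcc5 and Xrcc6) with the upper quartile. Of all 31001 genes, DESeq2's factors called 18080 lower and 1342 higher, and the upper quartile 17093 and 4556.

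**Figure D1:**
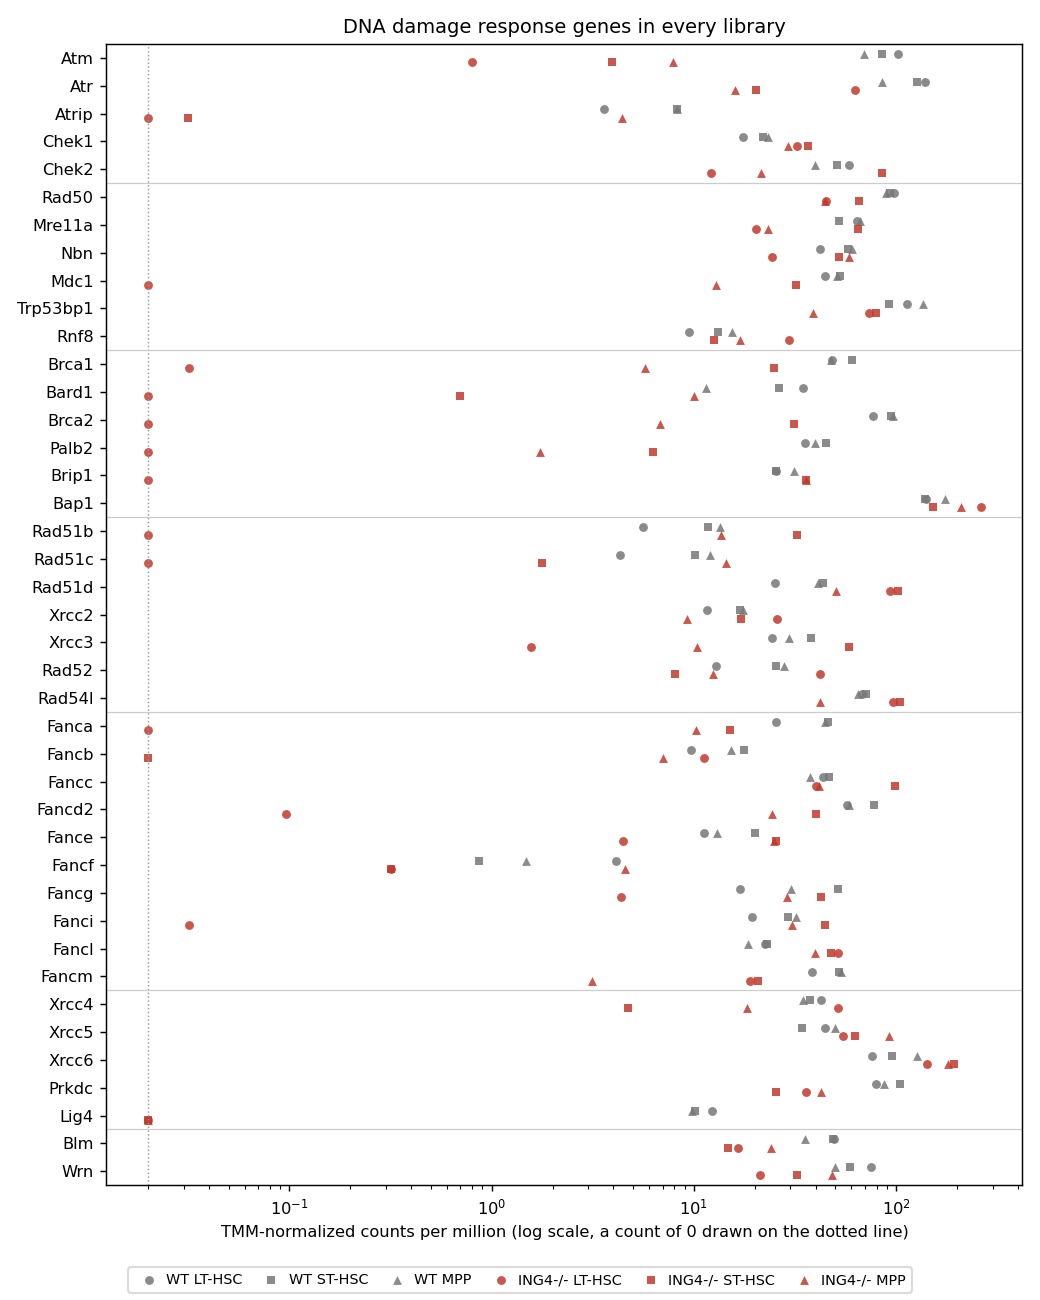
TMM-normalized CPM of the 41 genes (rows, grouped by role) in each library on a log scale, WT in grey and ING4-/- in red, with circles for LT-HSCs, squares for ST-HSCs and triangles for MPPs. Atm, Prkdc and Rad50 lie lower in all 3 ING4-/- libraries than in any WT library, while 10 genes sit on the line for 0 counts in ING4-/- LT-HSCs.

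In 16 of the 41 genes every ING4-/- library lay below every WT library, and in 5 every ING4-/- library lay above. Among the 9673 genes that reached 10 counts in each of the 6 libraries these shares were 13.1% and 35.9%, and of the 26 repair genes in that set 8 lay below and 5 above. Because the minimum must be met in ING4-/- too, it leaves out every gene that was at or near 0 in an ING4-/- library. Within populations, where 1 library per genotype allows no test, the median log2 ratio of the 41 genes was -1.58, -0.51 and -0.89, and 19 genes were lower and 6 higher in all 3. The medians over all genes tested were -4.13, -4.07 and -3.74, and over the genes with 10 counts in each library 0.55, 0.59 and 0.37. After background subtraction 19 were lower and 4 higher in all 3, but not the same ones, since Bap1, Rad51d, Xrcc5 and Xrcc6 left the higher set and Rnf8 and Fancf joined Chek1 and Fancl in it.

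The WT background reached the repair genes unevenly. It came to 34.2%, 32.3% and 24.3% of the summed counts of the 41 genes in WT. In all 3 WT libraries 25 genes stood at over 2 times the background for their exonic length. Atrip, Fancf, Lig4, Rad51c and Xrcc2 reached that level in none, and Atrip never exceeded the background. After the receptor density times exonic length was subtracted from every gene in every library, 38 of the 41 could be tested (not Atrip, Fancf or Lig4). Then 5 fell (Atm, Atr, Prkdc, Rad50 and Trp53bp1) and 0 were called higher, where over 19672 genes 38.6% were called lower and 5.64% higher. The median of the 38 was then -0.95, close to the all-gene median of -0.92. By DESeq2, on the unsubtracted counts, 0 of the 41 were called higher as well, beside 1518 of 30405 genes. After subtraction 10 of the 38 had an unadjusted p under 0.05 by edgeR in either direction.

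**Figure D2:**
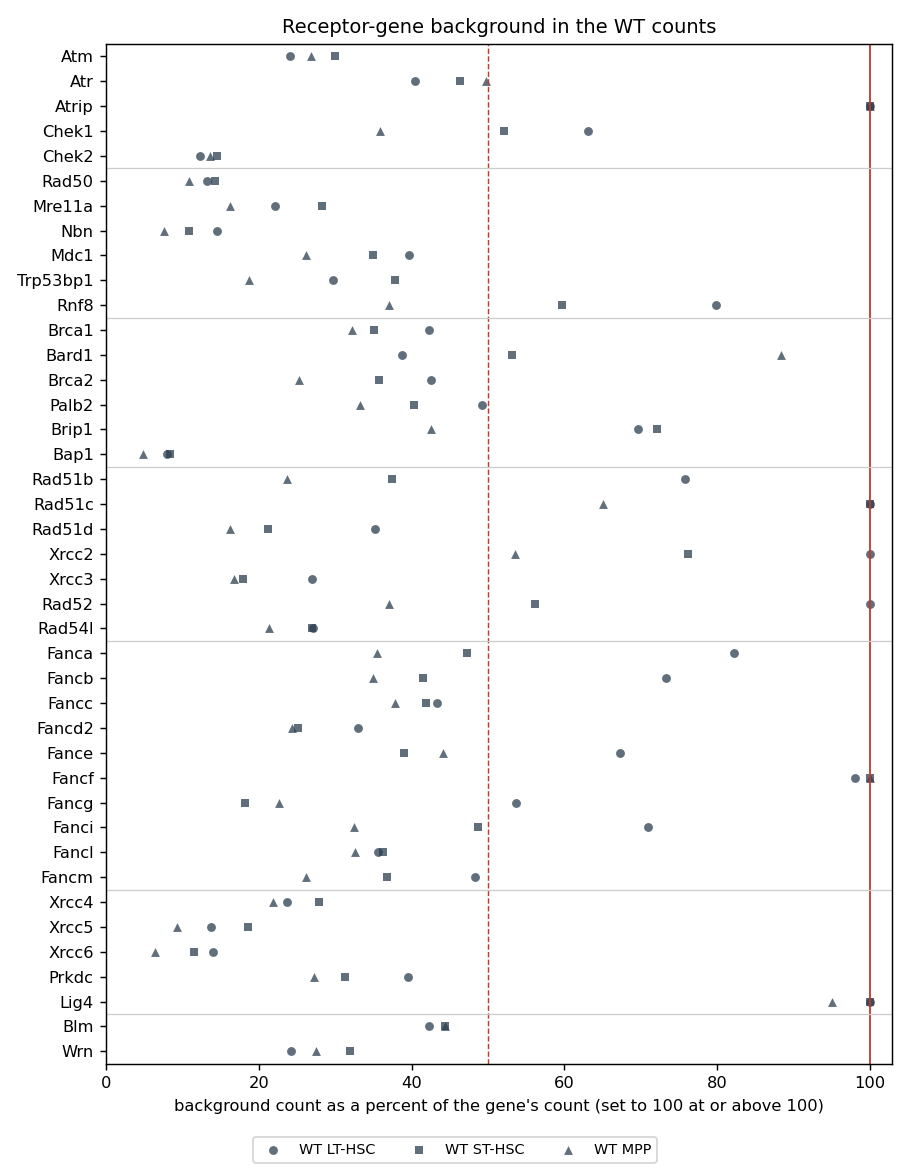
Count expected from the receptor-gene background as a percent of each gene's count in the 3 WT libraries, set to 100 where background met or exceeded the count. Bap1, Nbn, Xrcc6, Rad50 and Chek2 stay below 15%, while Atrip sits at 100% in all 3 libraries and Lig4 at 95.1% or more.

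Compared per kb of exon, after background subtraction, Bap1 had the highest level of the list in each WT library, with an RPKM (CPM per kb of exon) of 42.7, 44.6 and 50.3. Xrcc6, Nbn, Rad50, Chek2 and Xrcc5 came next by the mean of the 3 WT libraries, with 16.2 to 37.7. Lig4, Atrip and Fancf lay at 0.134 or below in WT. In ING4-/-, Bap1 (27.4 or more) and Xrcc6 (28.2 or more) held the highest levels, and Atm, which had 6.96 to 11.6 in WT, had 0.0663 to 0.652.

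The kinases at the head of the response fell in ING4-/-. Atm, the kinase that answers double-strand breaks, lies on chromosome 9 from 53439149 to 53536740 on the minus strand with 10338 exonic bases. Its CPM was 102, 85.4 and 69.3 in WT against 0.799, 3.95 and 7.84 in ING4-/-. Every ING4-/- library was far below every WT library, and the order of the populations was opposite in the 2 genotypes. The log2 fold change was -4.35 (SE 0.82, adjusted p = 0.00226, edgeR), and -4.75 (SE 0.85, adjusted p = 0.00278) after background subtraction, where background made up at most 29.9% of its WT counts. Atm was called lower in each of the 19 alternative analyses, with a log2 fold change of -5.14 to -3.83 as single libraries were left out.

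Atr, the kinase of stalled forks, lies on chromosome 9 from 95857597 to 95951781 and has the longest annotated exonic length of the list, 23629 bases. Its CPM was 139, 126 and 85.3 in WT and 62.2, 20.2 and 16.0 in ING4-/-, so the groups did not overlap. It fell by 1.83 on the log2 scale (SE 0.56, adjusted p = 0.0224, edgeR). Background gave 40.5% to 49.7% of its WT counts, and after subtraction the log2 fold change was -1.79 (adjusted p = 0.0489). The call was lost without the WT LT-HSC library (adjusted p = 0.0687), the WT ST-HSC library (0.0634) or the ING4-/- ST-HSC library (0.0604), and with a trend on gene length removed the value was -0.059 (adjusted p = 0.957). Its partner Atrip had 34, 77 and 84 counts in WT, all at or below background, and 0, 1 and 149 in ING4-/-. It was called lower without the ING4-/- MPP library, and 49.9% of its exons lie within another gene of its strand.

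The checkpoint kinases that ATR and ATM phosphorylate were not called. Chek1, the effector of ATR, had a CPM of 17.5, 22.0 and 23.2 in WT and 32.5, 36.8 and 29.2 in ING4-/-, without overlap. The log2 fold change of 0.65 (SE 0.37, adjusted p = 0.168, edgeR) did not pass, and background made up 35.9% to 63.2% of its WT counts. Chek2, the effector of ATM, had a CPM between 39.7 and 58.2 in WT and between 12.1 and 85.1 in ING4-/-, where ST-HSCs stood above and the other populations below WT (log2 fold change -0.33, adjusted p = 0.713). Of the alternatives run, only that without the ING4-/- ST-HSC library called it lower.

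The MRN complex, which binds broken ends and activates ATM, is built from RAD50, MRE11 and NBS1. Rad50 (chromosome 11 from 53649519 to 53707319) had a CPM of 97.0, 93.0 and 88.7 in WT and 44.8, 65.1 and 44.5 in ING4-/-. The WT values were close together and all above the ING4-/- values. Its log2 fold change of -0.85 (SE 0.26, adjusted p = 0.0219, edgeR) passed the p threshold and missed the fold threshold, and it fell by 1.48 (SE 0.26, adjusted p = 0.00274) after subtraction of a background that made up at most 14.3% of its WT counts. Leaving out the ING4-/- ST-HSC library (-1.03) or the WT MPP library (-1.02) also took it past both thresholds. With 10 counts in every library and the length trend removed it was again called (-1.11, adjusted p = 0.0395).

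Mre11a, the nuclease of the complex, had a CPM of 64.0, 51.9 and 65.8 in WT and 20.2, 64.4 and 23.4 in ING4-/-. The ING4-/- ST-HSC library lay within the WT range and the other ING4-/- libraries well below it. Its log2 fold change was -0.75 (SE 0.50, adjusted p = 0.227, edgeR), and without that ST-HSC library it was -1.45 (adjusted p = 0.0104). After background subtraction its ratio was negative in all 3 populations, at -2.08, -0.17 and -1.96. Nbn, which encodes NBS1, had 41.8, 57.7 and 60.6 in WT and 24.3, 52.3 and 58.3 in ING4-/-. Its groups overlapped (log2 fold change -0.25, SE 0.40, adjusted p = 0.625), and the direction turned with upper-quartile scaling and without ING4-/- LT-HSCs.

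Of the proteins that read the chromatin around a break, Trp53bp1, which encodes 53BP1 and steers breaks toward end joining, had a CPM of 114, 92.6 and 136 in WT and 72.9, 79.4 and 38.6 in ING4-/-. The groups did not overlap, and MPPs held both the highest WT and the lowest ING4-/- value. The log2 fold change was -0.84 (SE 0.33, adjusted p = 0.0595, edgeR) and -1.18 (SE 0.36, adjusted p = 0.0314) after background subtraction. Without ING4-/- ST-HSCs it was -1.01 and just past both thresholds (adjusted p = 0.0495). A gene on the opposite strand covers 15.0% of its exons, and with the length trend removed the sign turned (0.21, adjusted p = 0.741). Mdc1, the scaffold that binds marked histone at a break, had 423, 488 and 519 counts in WT and 0, 1012 and 436 in ING4-/-. In CPM its log2 ratios were -8.87, -0.71 and -1.98, and every ING4-/- library lay below every WT library. Rnf8, the ubiquitin ligase that MDC1 recruits, ran from 9.48 to 15.4 CPM in WT and from 12.6 to 29.5 in ING4-/- and overlaps another gene of its strand over 48.5% of its exons. Neither was called (adjusted p = 0.389 and 0.339).

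The BRCA genes spread widely among the 3 ING4-/- libraries. Brca1, which promotes end resection, had 457, 559 and 484 counts in WT and 1, 782 and 194 in ING4-/-. In CPM that was 48.1, 60.2 and 47.5 against 0.0320, 24.7 and 5.72, with every ING4-/- value below every WT value. Brca2, which acts after resection in homologous recombination, had 725, 877 and 986 counts in WT and 0, 988 and 231 in ING4-/-, or 76.4, 94.4 and 96.7 CPM against 0, 31.2 and 6.81. The groups were again apart, with ST-HSCs the highest of the ING4-/- libraries. The log2 fold changes were -2.35 for Brca1 (SE 1.51, adjusted p = 0.213, edgeR) and -2.81 for Brca2 (SE 1.63, adjusted p = 0.172), and neither was called. Without the ING4-/- LT-HSC library both were called, with a log2 fold change of -1.74 for Brca1 (adjusted p = 0.0428) and -2.20 for Brca2 (adjusted p = 0.0179). After background subtraction without that library Brca2 was still called (-2.47, adjusted p = 0.0317).

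Palb2, which bridges BRCA1 and BRCA2, had 337, 418 and 403 counts in WT and 0, 198 and 59 in ING4-/- (log2 fold change -3.90, SE 1.61, adjusted p = 0.0679). It was the member of this group closest to a call. DESeq2 did call it, and edgeR called it without ING4-/- LT-HSCs (-3.29, adjusted p = 0.00413) or ING4-/- ST-HSCs (-5.48, adjusted p = 0.0335). Bard1, the obligate partner of BRCA1, had 330, 244 and 117 counts in WT and 0, 22 and 341 in ING4-/-, highest in LT-HSCs of WT and in MPPs of ING4-/-. In CPM its log2 ratio in MPPs was -0.19, and after background subtraction 2.10. Its log2 fold change of -2.75 (SE 1.80, adjusted p = 0.222, edgeR) became -6.06 without the ING4-/- MPP library, where Bard1 was called (adjusted p = 0.0229). Brip1, a helicase bound to BRCA1, had 0, 1132 and 1213 counts in ING4-/- and 237 to 320 in WT. In CPM its log2 ratios were -8.07, 0.49 and 0.19, with a log2 fold change of -0.20 (adjusted p = 0.925, edgeR). Bap1, a deubiquitinase named for its binding to BRCA1, had 141, 139 and 174 CPM in WT and 262, 153 and 210 in ING4-/-, with a log2 fold change of 0.46 (adjusted p = 0.145) that was -0.25 after subtraction. Of these 6 genes 0 were called by edgeR (1 had an unadjusted p under 0.05) and 1 by DESeq2. The shares over all genes were 56.7% lower and 7.98% higher by edgeR, while DESeq2 called 18595 lower and 1518 higher of 30405.

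Among the other recombination factors, Rad51d (chromosome 11 from 82876434 to 82890614) had a CPM of 25.2, 43.4 and 41.2 in WT and 93.6, 102.5 and 50.6 in ING4-/-. The lowest ING4-/- library lay above the highest WT library. It rose by a log2 fold change of 1.17 (SE 0.38, adjusted p = 0.0301, edgeR), and this call was lost after background subtraction (0.71, adjusted p = 0.245), with DESeq2's size factors (0.82, adjusted p = 0.102), with population as a block (adjusted p = 0.0628) and without any of 4 libraries, the 3 of WT (adjusted p = 0.101, 0.0528 and 0.0910) or the ING4-/- ST-HSCs (0.0750). Rad51c had 41, 94 and 123 counts in WT, where background gives 99.1, 100.5 and 80.1, and 0, 56 and 489 in ING4-/-. Only WT MPPs stood above background, and the log2 fold change went from -0.71 (SE 1.71, adjusted p = 0.743) to 1.20 (adjusted p = 0.734) after subtraction.

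Rad54l, a DNA translocase of homologous recombination, had a CPM of 67.8, 70.6 and 64.9 in WT and 96.0, 104 and 42.2 in ING4-/-. The WT libraries lay close together and the ING4-/- libraries lay on either side of them (log2 fold change 0.25, SE 0.37, adjusted p = 0.580), with a value of -0.11 under DESeq2's size factors and -0.15 after subtraction. In ST-HSCs its ratio went from 0.56 to 0.056 when background was subtracted, and in MPPs from -0.62 to -0.995. A gene on the opposite strand covers 15.4% of its exons. The other genes of this group, Rad51b, Xrcc2, Xrcc3 and Rad52, had overlapping groups and log2 fold changes between -0.38 and 0.58 with adjusted p of 0.785 or more. Rad51b had 0, 1027 and 463 counts in ING4-/-. Rad52, a strand annealing factor, had 1315, 254 and 419, with ING4-/- LT-HSCs the highest of the 6 libraries at 42.0 CPM.

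Of the 10 Fanconi anemia genes 1 rose and none fell by edgeR (2 had an unadjusted p under 0.05), and DESeq2 called 1 lower. Over all genes edgeR called 7.98% higher and 56.7% lower, and DESeq2 called 18595 of 30405 lower. Fancl (chromosome 11 from 26386135 to 26471876), the ubiquitin ligase of the core complex, had a CPM of 22.5, 22.9 and 18.5 in WT and 51.7, 47.8 and 39.5 in ING4-/-. All ING4-/- libraries were above all WT libraries, with log2 ratios of 1.19, 1.06 and 1.09 in LT-HSCs, ST-HSCs and MPPs. It rose by a log2 fold change of 1.12 (SE 0.34, adjusted p = 0.0206, edgeR), a call that was lost after background subtraction (0.91, adjusted p = 0.137), with DESeq2's size factors (0.75, adjusted p = 0.120), with population as a block (adjusted p = 0.0825) and without any of the 3 WT libraries (adjusted p = 0.0713, 0.0925 and 0.104). A gene on the opposite strand covers 13.7% of its exons.

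Fanca, a core complex subunit, had 241, 425 and 452 counts in WT and 0, 478 and 348 in ING4-/-, or 25.4, 45.8 and 44.4 CPM against 0, 15.1 and 10.3. Fancd2, the protein that the core complex ubiquitinates, had 545, 723 and 595 counts against 3, 1272 and 821, or 57.4, 77.8 and 58.4 CPM against 0.0959, 40.2 and 24.2. In both genes the groups were apart and ING4-/- LT-HSCs lay orders of magnitude below the other libraries. The log2 fold changes were -2.19 for Fanca (SE 1.61, adjusted p = 0.274, edgeR) and -1.59 for Fancd2 (SE 1.38, adjusted p = 0.355). Without ING4-/- LT-HSCs the value for Fanca was -1.57 and it was called (adjusted p = 0.0197), and Fancd2 was called without that library once background was subtracted (-1.39, adjusted p = 0.0382). Fanci, the partner of FANCD2, had 1 count in ING4-/- LT-HSCs and 1412 and 1040 in ST-HSCs and MPPs, a range that took in the WT CPM.

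Fancm, the translocase that anchors the core complex on DNA, ran from 38.3 to 53.3 CPM in WT and from 3.13 to 20.7 in ING4-/- without overlap (log2 fold change -1.75, SE 0.70, adjusted p = 0.0620), and it was called lower with DESeq2, with 10 counts in every library and without ING4-/- MPPs (-1.25, adjusted p = 0.0299). Fancb was at 0 counts in ING4-/- ST-HSCs and at 350 and 239 in LT-HSCs and MPPs. Fancc, Fance, Fancf and Fancg, all core complex subunits, had overlapping groups and log2 fold changes from -0.39 to 0.50. Fancf had 39, 8 and 15 counts in WT, where background gives 38.2, 38.8 and 30.9, and 10, 10 and 155 in ING4-/-. Only in ING4-/- MPPs did it pass 100 counts, and without that library its log2 fold change went from -0.30 to -2.71 and it was called lower (adjusted p = 0.0429).

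**Figure D3:**
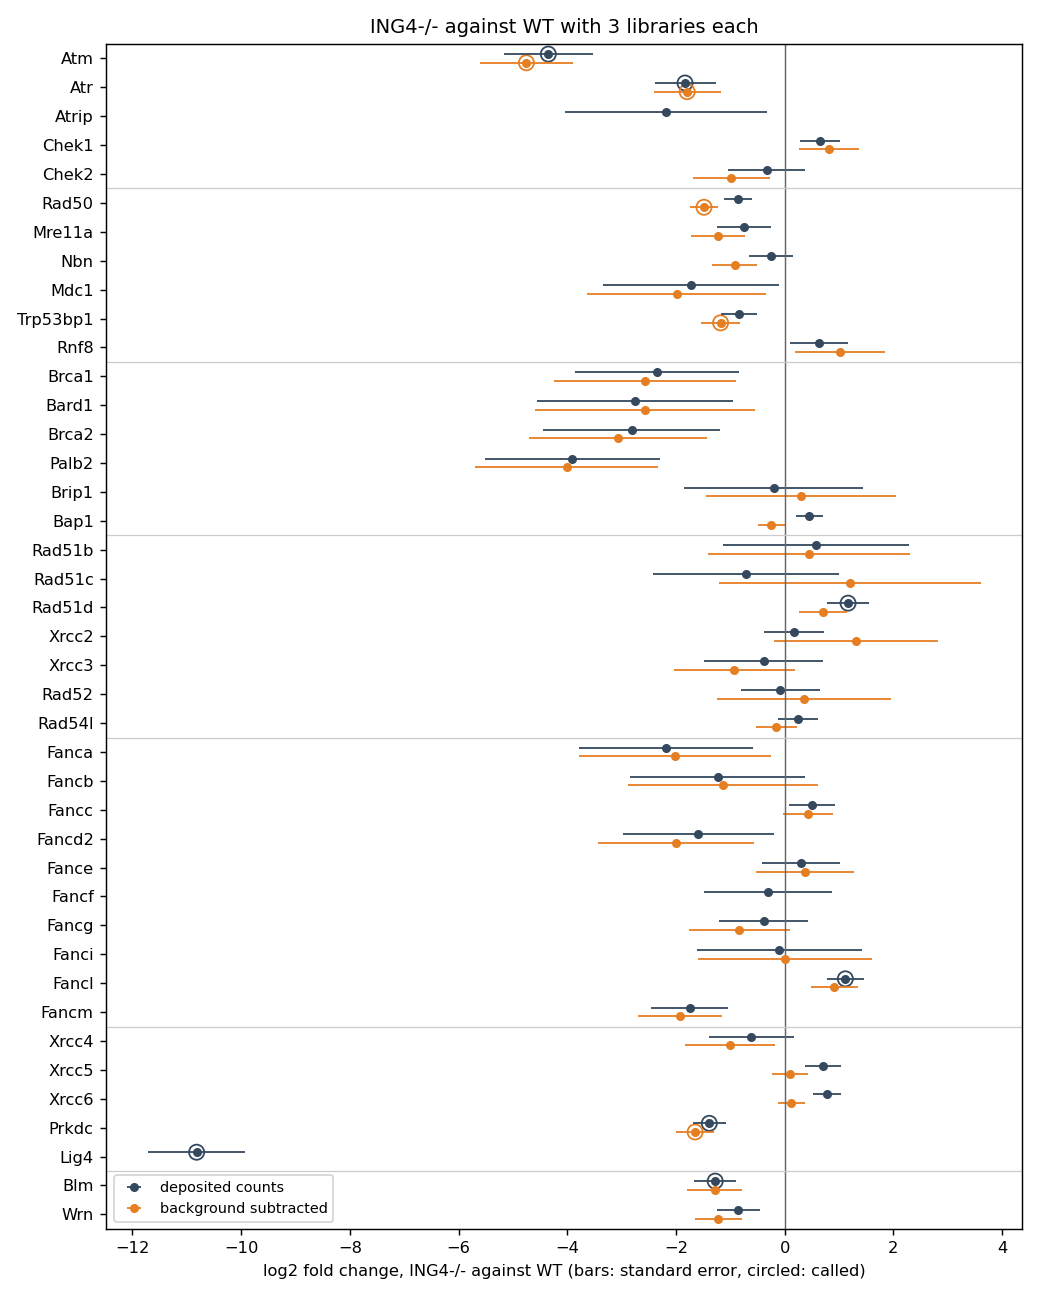
Log2 fold change of ING4-/- against WT for the 41 genes (rows, by role) from the deposited counts (dark) and after subtraction of the receptor background (orange), with standard errors as bars and called values circled. Atm stands at -4.35 and -4.75, Brca1, Bard1, Brca2, Palb2 and Brip1 have standard errors of 1.5 or more, and Lig4 is drawn at its fitted value from counts of 0 in ING4-/-.

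For end joining, 1 gene of the DNA-PK holoenzyme fell and the Ku genes were not called. Prkdc, its catalytic subunit (chromosome 16 from 15637866 to 15842235, with 13187 exonic bases), had a CPM of 79.5, 104 and 86.8 in WT and 35.7, 25.5 and 42.3 in ING4-/-. Every ING4-/- library was below every WT library. It fell by 1.39 on the log2 scale (SE 0.30, adjusted p = 0.00437, edgeR) and by 1.65 (SE 0.35, adjusted p = 0.00540) after background subtraction, and it was called with each library left out, while the length trend brought the value to -0.49 (adjusted p = 0.329). Xrcc6, which encodes Ku70, had a CPM of 76.1, 95.8 and 127 in WT and 141, 192 and 181 in ING4-/-. Xrcc5, which encodes Ku80, had 44.6, 34.0 and 49.6 against 54.4, 62.6 and 92.3. Both Ku genes lay higher in every ING4-/- library than in any WT library. The log2 fold change was 0.78 for Xrcc6 (SE 0.26, adjusted p = 0.0305, edgeR), short of the fold threshold, and 0.71 for Xrcc5 (SE 0.32, adjusted p = 0.0933), and after subtraction they were 0.12 and 0.10 (adjusted p = 0.745 and 0.838).

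Lig4, the ligase that seals joined ends, lies on chromosome 8 from 9969049 to 9977686. It had 117, 94 and 100 counts in WT and 0 in each ING4-/- library, which makes it at least 115.5-fold lower against a floor of 3 counts per library (adjusted p = 6.6e-04, edgeR). Background alone corresponds to 117.6, 119.3 and 95.1 counts in WT for its length. Only the WT MPP count exceeded that, and after subtraction too few counts were left to test. Xrcc4, the partner of LIG4, had 402, 347 and 352 counts in WT and 1617, 149 and 619 in ING4-/-, or 34.5 to 42.3 CPM against 51.7, 4.71 and 18.3 (log2 fold change -0.61, SE 0.78, adjusted p = 0.528). LT-HSCs lay above and the other ING4-/- libraries below the WT range. Without ING4-/- LT-HSCs it was called lower (-1.70, adjusted p = 0.0442), and without ING4-/- ST-HSCs the value was -0.10 (adjusted p = 0.878).

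The RecQ helicases, which dissolve recombination intermediates and unwind stalled forks, were the last group. Blm (chromosome 7 from 80454733 to 80535119) had a CPM of 49.5, 48.8 and 35.4 in WT and 16.5, 14.7 and 23.9 in ING4-/-. The groups did not overlap and were closest in MPPs. It fell by 1.28 on the log2 scale (SE 0.39, adjusted p = 0.0216, edgeR), and the call was lost after background subtraction (-1.29, adjusted p = 0.0753) and with population as a block (adjusted p = 0.0889). It also failed without WT LT-HSCs (adjusted p = 0.0780), WT ST-HSCs (0.0923) or ING4-/- ST-HSCs (0.0532). Wrn ran from 49.6 to 75.0 CPM in WT and from 21.1 to 48.1 in ING4-/-, highest in LT-HSCs of WT and in MPPs of ING4-/- (log2 fold change -0.85, SE 0.39, adjusted p = 0.0950), and was called lower with DESeq2 and without ING4-/- MPPs (-1.17, adjusted p = 0.0391).

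Many genes of this pathway were at or near 0 in ING4-/- LT-HSCs and well counted in the other ING4-/- populations. In that library 13 of the 41 genes had 3 counts or fewer, against 3 in ING4-/- ST-HSCs, 1 in ING4-/- MPPs and 0 in each WT library. A count of 0 there allows up to 3 counts, or 0.0959 CPM, which is below the unsubtracted CPM of each of these 13 genes in every WT library. The WT background of 18.3 to 22.9 counts per kb of exon by itself exceeds 3 counts for each of the 41 genes. The 0 in WT therefore does not show that these genes were expressed there. After background subtraction the mean WT CPM was 0 for Atrip, 0.232 for Lig4 and 1.995 for Rad51c. Of the genes that reached 100 counts in both other ING4-/- libraries, 8 of 34 repair genes were at 3 counts or fewer in LT-HSCs (Mdc1, Brca1, Brca2, Brip1, Rad51b, Fanca, Fancd2 and Fanci). Over all genes chosen the same way the share was 6.57% (641 of 9762). A separate list of 36 other double-strand break repair genes gave 8, the excision and mismatch repair list 2 of 40, the checkpoint and fork list 2 of 22 and the cycling list 2 of 24. In ST-HSCs 1 of 25 repair genes was at the floor (Fancb), with 2.45% of all genes, and in MPPs 0 of 24, with 1.47%. Each of these counts rests on 1 library, and no test was made of the difference between lists.

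**Figure D4:**
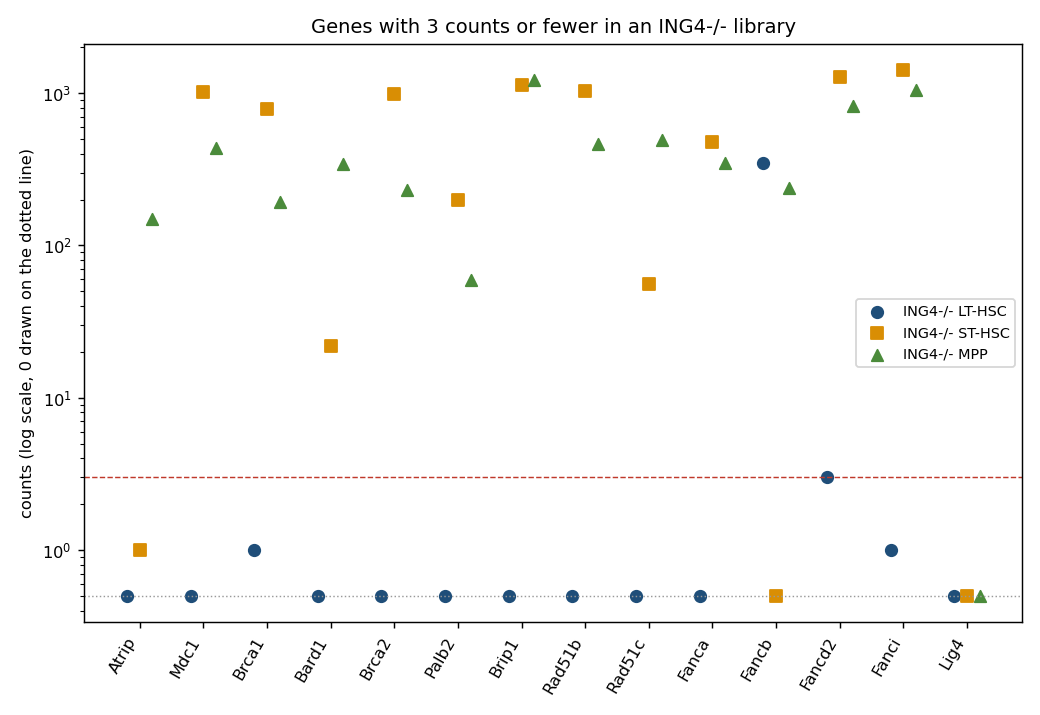
Counts in the 3 ING4-/- libraries, on a log scale, of the 14 genes with 3 counts or fewer (dashed line) in at least 1 of them, with 0 drawn on the dotted line. LT-HSCs sit at or below 3 counts for 13 genes while Mdc1, Brca2, Brip1, Fancd2 and Fanci have 988 to 1412 counts in ST-HSCs.

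Longer genes had lower fold changes. The 41 genes had a median of 5375 exonic bases (1691 to 23629), against 3231 over protein-coding genes. Across genes, which share the same 6 libraries and are not replicates, the log2 fold change from the deposited counts had a Pearson correlation with log2 exonic length of -0.35 and a Spearman correlation of -0.57. In the 26 genes that reached 10 counts in each library these were -0.60 and -0.62. Under that minimum 8 of the 26 were called lower (Atm, Atr, Prkdc, Blm, Wrn, Rad50, Trp53bp1 and Fancm) and 0 higher (9 of the 26 had an unadjusted p under 0.05, and DESeq2 called 0 of the 41 higher), where over all 9673 genes 9.68% were called lower and 8.3% higher. Of these 8, 7 were among the 11 genes longer than the median of the list. When the trend on length was taken out of every library, 2 of the 26 were called lower (Atm and Rad50) and 0 higher, beside 4.67% and 4.65% over all genes, and the median log2 fold change was -0.35 beside 0.062. The correlations were then -0.060 and 0.094.

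**Figure D5:**
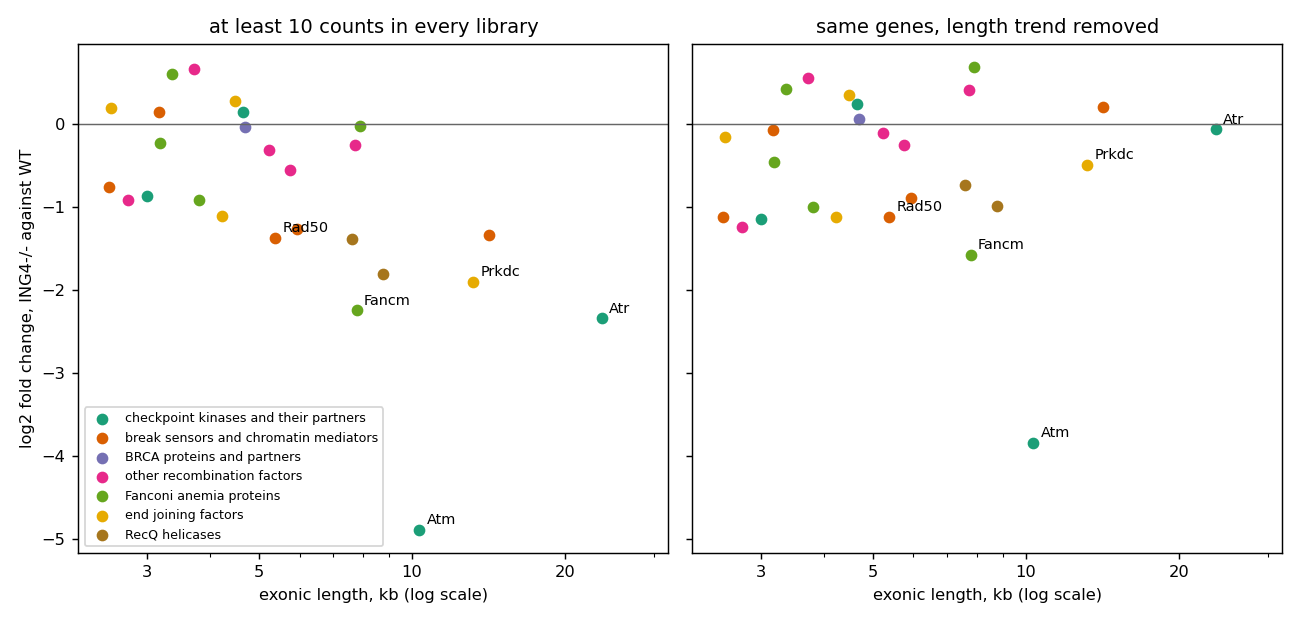
Log2 fold change of ING4-/- against WT for the 26 genes that reached 10 counts in each library against exonic length in kb on a log scale, colored by role, before (left) and after (right) a trend on length was removed from every library. Atr moves from -2.34 to -0.059 and Prkdc from -1.90 to -0.49, while Atm goes from -4.89 to -3.84.

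The wider repair network, from lists written beside the 41 genes, was not called in 1 direction. The counts that follow stand beside 56.7% called lower and 7.98% called higher over all genes with the deposited counts, and beside 38.6% and 5.64% after background subtraction. Of 38 other double-strand break repair genes 3 fell (Topbp1, Helq and Dclre1c) and 2 rose (Babam1 and Swi5), with a median log2 fold change of -0.34. After subtraction Topbp1 and Dclre1c remained lower and Smc6 was called lower as well, and the calls of Helq (adjusted p = 0.0706), Babam1 (0.192) and Swi5 (0.0643) were lost. Rmi2 was then called higher at 11.2, from 1.45 before subtraction (adjusted p = 0.189, edgeR). Its WT counts of 46, 44 and 80 all lay below background and became 0, so that value rests on the floor. Of 22 other checkpoint and fork genes 5 rose (Mapkapk2, Tipin, Wee1, and Rpa2 and Rpa3 of the single-strand binding protein RPA) and 1 fell (Clspn, the mediator between ATR and CHK1), with a median of 0.53. Of these 6 only Mapkapk2 kept its call after subtraction (adjusted p = 0.0328), where Rpa2 stood at 0.62 (adjusted p = 0.143), Rpa3 at 1.16 (0.113) and Clspn at -2.16 (0.0531).

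Of 42 excision and mismatch repair genes 8 rose, such as Apex1 and Fen1 of base excision, and 2 fell (Msh3 and Gtf2h1), with a median of 0.32. Genes on the opposite strand cover 61.7% of the exons of Apex1 and 84.2% of those of Fen1. Both lost their call after subtraction (adjusted p = 0.168 and 0.0924, edgeR). After subtraction 1 was called higher (Cetn2) and 3 lower (Gtf2h1, Msh3 and Parp2). The cycling list, 25 genes of replication and mitosis, had a median of 1.09, with 4 higher (Pcna, Mcm4, Mcm6 and Cdk1) and Mki67 lower. All 4 of the higher calls were lost after subtraction, with Pcna at 0.62 (adjusted p = 0.208), Mcm4 at 0.28 (0.414), Mcm6 at 0.36 (0.481) and Cdk1 at 0.95 (0.258), while Mki67 stayed lower (-4.81, adjusted p = 0.0112). DESeq2, on the unsubtracted counts, called 0 higher and 5 lower among the other double-strand break repair genes, 2 and 2 in the checkpoint list, 4 and 4 in the excision list, and 0 and 1 in the cycling list. Over all genes DESeq2 called 1518 higher and 18595 lower of 30405. After background subtraction the medians of the 4 lists were -0.32, 0.30, 0.014 and 0.36, beside -0.95 for the 38 genes tested of the 41.

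With stem cells alone, LT-HSCs and ST-HSCs of each genotype, 9 of the 41 genes were called lower (Atm, Atr, Atrip, Bard1, Blm, Fancf, Lig4, Prkdc and Wrn) and 1 higher (Rad51d), where 59.1% and 5.15% of 31530 genes were called. Of the 9, Atrip, Fancf and Lig4 were at or near background in the WT libraries. After background subtraction 4 were lower (Atm, Prkdc, Rad50 and Wrn), with 10 counts in every library only Atm, and with population as a block 0 by edgeR (9 had an unadjusted p under 0.05), while DESeq2 called 11 lower. Over all genes, 8277 of 20261 were called lower after subtraction and 233 of 9957 with 10 counts in every library. With the block 12 of 31530 were called lower, and by DESeq2 19421 of 31530. In the first of these stem cell fits Atm had a log2 fold change of -5.48 (SE 0.95, adjusted p = 0.00693, edgeR) and Prkdc -1.76 (adjusted p = 0.0155).

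Between populations, with genotype in the model, 0 of the 41 genes were called higher and 0 lower in MPPs than in LT-HSCs, as for all genes (0% of 31001 in each direction by edgeR). At an unadjusted p under 0.05 there was 1, Atr (log2 fold change -1.39), among 561 of all genes in edgeR, and DESeq2 called 0 of the 41 beside 149 higher and 187 lower of the 23788 genes it tested. The largest positive values belonged to genes that were at 0 in ING4-/- LT-HSCs, such as Atrip (6.16) and Rad51c (4.74). The design leaves 2 residual degrees of freedom, and these values do not show that the populations were alike.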

How the data were processed

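The 6 libraries were sorted from pooled marrow, so that a library stands for the pooled mice of a genotype and not for 1 animal. Raw counts of reads per gene were deposited for each library, with no normalization, and the submitters' processing notes name the mouse build mm10. The aligner, the counting program and its strand setting were not given in the sources used here. The genes and gene lists were chosen with earlier results of these data known. Values in every library are given for genes called from the deposited or the background-subtracted counts and for a set written beside the list, and the rest are given by range.

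Genotypes were compared with 3 libraries each by the quasi-likelihood F test of edgeR 4.0.16 under R 4.3.3, after filterByExpr and TMM scaling, in a fit over all genes. SE was taken as the size of the log2 fold change over the square root of F. Ratios within a population used a prior count of 2. Alternatives were DESeq2 1.42.0, other normalizations and filters, subtraction of the receptor-gene density times exonic length (floor 0), removal of a lowess trend on exonic length (span 0.3), population as a block, and each library left out. Of these, subtraction without ING4-/- LT-HSCs and subtraction joined with the length trend were chosen after seeing the data. Libraries of a population deviated together from their genotype means (r = 0.143, 0.110 and 0.121 over 9673 genes, each over 0.1), so populations pair the libraries.

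No pair of libraries within a genotype was a duplicate deposit (chi-square per degree of freedom 14.1 or more). On simulated counts with 200 changed genes among 28468, edgeR recovered 117 (88 of the 100 changed 4-fold) with 4 false calls. The simulated libraries shared the same gene means apart from those 200, with no background particular to WT and no difference between populations. The recovery and the false calls therefore do not measure error rates in these data. Reads carried no molecular identifiers, so floors cover counting error only. Exon overlaps and positions came from GENCODE vM21, promoters from RefSeq on GRCm38.p6. The study's flow cytometry and transplantation were not analysed here.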

Additional observations from a re-analysis of the deposited data

Results flagged for a closer look

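Among the 20 genes followed through the alternatives below, 2 had a log2 ratio of ING4-/- to WT above 0 in 1 population and below 0 in another with both 95% counting intervals clear of 0. For Mre11a it was 0.31 in ST-HSCs and -1.66 in LT-HSCs, a difference of 1.97. For Rad54l it was 0.56 in ST-HSCs and -0.62 in MPPs, a difference of 1.18. After background subtraction Mre11a was at -0.17 in ST-HSCs and negative in all 3 populations, so the opposite directions were lost, and Rad54l was at 0.056 in ST-HSCs and -0.995 in MPPs. Rad51c also had ratios of both signs, but its positive value, 0.26 in MPPs, had an interval that took in 0 (-0.032 to 0.55). Genes outside those 20 also had ratios of both signs with intervals clear of 0. Among them, in LT-HSCs and ST-HSCs, were Chek2 (-2.26 and 0.74), Rad52 (1.70 and -1.64) and Xrcc4 (0.29 and -2.96). After background subtraction Chek2 was at 0.006 in ST-HSCs and Xrcc4 at -0.108 in LT-HSCs. Each population had 1 library per genotype, so the differences were not tested.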

How the results depend on the processing

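Over 20 named genes and up to 19 alternatives, 257 values kept their direction and their side of the threshold, 50 lost a call, 30 gained one and 16 changed sign. Of the 41 genes, 5 were called lower and 2 higher. These counts were 10 and 0 with DESeq2 and with its size factors in edgeR, 9 and 0 with TMM from protein-coding genes, 2 and 6 with the upper quartile, 8 and 0 with 10 counts in every library, and 2 and 0 with the length trend removed, with or without background subtraction. Over all genes the counts called lower and higher were 17566 and 2475 of 31001 to begin with. DESeq2 called 18595 and 1518 of 30405, its size factors 18080 and 1342 of 31001. Protein-coding TMM gave 18030 and 1380 of 31001, and the upper quartile 17093 and 4556 of 31001. With 10 counts in every library they were 936 and 803 of 9673. Removing the length trend gave 452 and 450 of 9673, or 266 and 158 of 8073 after subtraction. Background subtraction, with either set of background genes, called 5 lower and 0 higher, 0 higher also with 10 counts left, and 8 lower and 0 higher without ING4-/- LT-HSCs. Over all genes the first set called 7592 lower and 1109 higher of 19672 and the other 7884 and 1169 of 20000. With 10 counts left these were 472 and 321 of 8073, and without ING4-/- LT-HSCs 7832 and 1028 of 21921. Population as a block called 4 lower and 0 higher of the 41, beside 16880 and 1999 of 31001 genes. Leaving out a library gave 3 to 10 lower (3 without WT LT-HSCs or WT ST-HSCs, 10 without ING4-/- LT-HSCs or MPPs) and 0 to 2 higher. Over all genes those fits called 18189 to 20464 lower and 1705 to 2804 higher, of 32386 to 34725 tested. The median log2 fold change was -0.021 with the upper quartile and -1.17 with the block. In stem cells alone, 9 lower and 1 higher became 4 and 0 after subtraction, 1 and 0 with 10 counts in every library, and 0 and 0 with the block, whose median was -1.52. Over all genes those fits called 8277 and 1290 of 20261, 233 and 186 of 9957, and 12 and 2 of 31530. DESeq2 and its size factors called 0 of the 41 higher in stem cells, beside 1427 and 1219 of 31530 genes. For MPPs against LT-HSCs the median was -0.16 with 10 counts in every library. The sign turned for Nbn (0.34 with the upper quartile, -0.45 to 0.079 with a library left out, the positive end without ING4-/- LT-HSCs), Trp53bp1 (0.21 with the length trend removed), Xrcc5 (-0.15 with that trend removed, -0.23 with subtraction too), Rad51c (1.20 and 1.33 with the 2 background sets, 1.79 with subtraction and without ING4-/- LT-HSCs) and Rad54l (-0.11 with DESeq2's size factors in edgeR and with DESeq2, -0.095 with protein-coding TMM, -0.25 with 10 counts in every library, -0.15 and -0.14 with the 2 background sets, -0.25 with 10 counts left after subtraction and -0.31 without ING4-/- LT-HSCs as well). The causes were not tested. Atm was called lower under all 19 alternatives. Lig4 was called lower under the 12 in which it could be tested. The fits that subtracted background or asked for 10 counts in every library could not test Lig4, whose WT counts lay near background. Those 12 therefore do not separate its call from that background.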
